A study of Mus musculus with 6 samples.

Results

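The 42 genes described here act in the endoplasmic reticulum (ER) stress response, in secretion and in the folding and processing of collagen. They were taken as a fixed list of symbols, all 42 were found among the 52081 genes that all 6 libraries list, and their levels in the cells that make matrix in a fracture callus were set beside those in the other callus cells. By role, the list holds 6 sensors and transcription factors of the unfolded protein response, 13 ER chaperones and other targets of that response, 6 secretory genes, 7 collagen hydroxylases, 4 collagen chaperones and 6 genes of extracellular crosslinking and procollagen cleavage. Single-cell 3′ libraries were prepared from femoral fracture calluses of 12-week-old mice at 14 days post-fracture (dpf), with 3 control libraries (Piezo1 f/f by the paper, wt by the labels) and 3 libraries labelled knockout (Piezo1 Col2a1 by the paper), and the captured transcripts were counted by their unique molecular identifiers (UMIs). By the study's methods, tamoxifen (75 mg/kg) was given to the mice of either group for 5 days in a row from day 5, and in the knockout mice an inducible Cre recombinase driven by Col2a1 is meant to delete Piezo1 in cartilage-forming cells. The sample labels write the deleted gene as Piezo3, and the study's results and methods give different numbers of mice, so p-values here measure only the spread between the 3 libraries of a group.

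Some facts of the whole series bear on every value below. The libraries held 57626530 to 103784364 UMIs, and 41652 of 46944 barcodes were used as cells. Pairs of libraries shared at most 36 barcodes. Xist, which is transcribed from the inactive X chromosome, was at 577.84 UMIs per 1000000 UMIs of the library in knockout 3 and at 0.17 or less in the other 5 libraries, whereas the Y-linked Ddx3y was at 0 in knockout 3 and at 52.3 or more elsewhere, although the study describes the mice as male. Piezo1 itself was not lower in the libraries labelled knockout as a group. Its log2 difference was 0.56 (SE 0.40) in the chondrocyte stages and 0.30 (SE 0.32) in all matrix-making cells. In the matrix-making cells it was at 60.1, 43.5 and 58.0 UMIs per 1000000 in controls 1 to 3. Knockout 1, at 103, was above these values, whereas knockouts 2 and 3, at 41.6 and 42.8, lay below all of them. The study checked the knockout by immunofluorescence staining and determined genotypes by PCR and western blot. From its single-cell data it also reports significantly lower Piezo1 in 1 of its hypertrophic chondrocyte clusters. The clusters of the study were not used here, and every genotype difference below rests on the labels. Replicate 3 of both groups was counted with another gene list, and replicate 1 of both groups with another Cell Ranger version. Replicate 1 also had lower median UMIs per cell over all cells used. In the matrix-making cells, in contrast, it had the most UMIs per cell, with 45697187 UMIs in 1286 cells of control 1 and 36672524 in 880 of knockout 1. Controls 2 and 3 had 18916392 in 1279 and 25622360 in 2093. Knockouts 2 and 3 had 26567399 in 1811 and 51033255 in 3085. A fixed list of 14 dissociation and immediate-early genes also differed between libraries in these cells. Together they were at 5466, 5782 and 3390 UMIs per 1000000 in controls 1 to 3, and at 4693, 1586 and 7515 in knockouts 1 to 3. The part of dissociation in the levels of the members was not tested.

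When proteins enter the ER faster than they can be folded, the membrane sensors IRE1 (encoded by Ern1), PERK (encoded by Eif2ak3) and ATF6 start the unfolded protein response, which slows translation and raises chaperones through XBP1, ATF4 and ATF6. Procollagen needs more than these general chaperones: prolyl and lysyl hydroxylases modify its chains, HSP47 (encoded by Serpinh1) and the complex of CRTAP, cyclophilin B and a prolyl 3-hydroxylase assist the triple helix, COPII coat proteins such as SEC23A and SEC24D carry it out of the ER, and outside the cell BMP1 removes its C-terminal propeptide while lysyl oxidases start the crosslinks. In bone and cartilage, OASIS (encoded by Creb3l1) and BBF2H7 (encoded by Creb3l2) are membrane-bound transcription factors of the secretory pathway, and BBF2H7 is known to raise Sec23a in chondrocytes.

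The promoters of the list differ in the short elements they carry, and 6 that carry one are shown. RefSeq windows from 250 bases before to 50 bases after the annotated start (GRCm38.p6) were found for 31 of the 42 members and were searched on both strands. The members not matched were Atf6, Manf, Creb3l1, Kdelr2, Plod2, Fkbp10, Lox, Loxl1, Loxl2, Loxl3 and Bmp1. Each line below runs 5′ to 3′ on the strand of the gene, from 220 bases before its start to 20 after it, and the capitals mark the matches. In Hspa5, Hsp90b1 (2 matches) and Herpud1 these are ER stress response elements (ERSE or its second form, ERSE-II), with 1 match to the CHOP-ATF4 composite further upstream in Herpud1, and in Sec23a, Sec24d and Kdelr3 they are the core of the unfolded protein response element (UPRE).
Hspa5 (chr2:34771870-34772109, plus strand): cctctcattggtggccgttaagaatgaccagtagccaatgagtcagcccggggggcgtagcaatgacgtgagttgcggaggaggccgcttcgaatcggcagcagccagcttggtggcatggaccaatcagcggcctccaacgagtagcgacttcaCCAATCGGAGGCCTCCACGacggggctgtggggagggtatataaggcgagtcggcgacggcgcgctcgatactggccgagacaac
Hsp90b1 (chr10:86705425-86705664, minus strand): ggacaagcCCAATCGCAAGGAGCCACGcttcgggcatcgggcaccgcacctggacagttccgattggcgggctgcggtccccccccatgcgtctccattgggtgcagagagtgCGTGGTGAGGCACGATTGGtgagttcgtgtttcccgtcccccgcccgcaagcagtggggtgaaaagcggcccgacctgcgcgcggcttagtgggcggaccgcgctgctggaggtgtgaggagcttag
Herpud1 (chr8:94386209-94386448, plus strand): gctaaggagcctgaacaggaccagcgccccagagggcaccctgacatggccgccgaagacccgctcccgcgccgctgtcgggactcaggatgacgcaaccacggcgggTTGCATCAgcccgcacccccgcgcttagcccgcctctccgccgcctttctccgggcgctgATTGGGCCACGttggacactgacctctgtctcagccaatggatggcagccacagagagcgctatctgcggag
Sec23a (chr12:59011998-59012237, minus strand): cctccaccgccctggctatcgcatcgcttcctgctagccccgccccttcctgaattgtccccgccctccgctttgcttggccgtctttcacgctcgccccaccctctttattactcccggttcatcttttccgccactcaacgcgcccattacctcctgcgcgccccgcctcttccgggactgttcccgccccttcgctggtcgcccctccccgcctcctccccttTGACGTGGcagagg
Sec24d (chr3:123267276-123267515, plus strand): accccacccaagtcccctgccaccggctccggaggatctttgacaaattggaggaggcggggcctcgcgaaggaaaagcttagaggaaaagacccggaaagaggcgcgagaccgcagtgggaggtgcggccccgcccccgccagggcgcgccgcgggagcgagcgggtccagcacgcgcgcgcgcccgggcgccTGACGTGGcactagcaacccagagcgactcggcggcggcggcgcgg
Kdelr3 (chr15:79516188-79516427, plus strand): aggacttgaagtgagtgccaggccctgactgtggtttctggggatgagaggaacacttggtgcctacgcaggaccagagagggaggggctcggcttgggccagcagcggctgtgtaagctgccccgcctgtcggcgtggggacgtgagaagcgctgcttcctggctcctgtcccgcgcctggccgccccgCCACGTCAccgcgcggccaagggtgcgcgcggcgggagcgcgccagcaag

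An ERSE is CCAAT, a gap of 9 bases and CCACG, and the window of 39 of 32851 promoters (0.119%) held one. Of the members, 7 held it: Hspa5, Hsp90b1, Calr, Canx, Pdia6, Dnajc3 and Creld2, all of them among the 12 matched chaperones and targets, while none of the matched members of the other roles did. The ERSE-II (ATTGG, a gap of 1 base, CCACG) was found in 12 promoters (0.0365%), Herpud1 among them, and the CHOP-ATF4 composite TTGCATCA in 294 (0.895%), again with Herpud1 as the member. The UPRE core TGACGTGG was found in 222 promoters (0.676%) and in 3 of the 4 matched secretory genes, Sec23a, Sec24d and Kdelr3. It contains the ACGT core, which stood in 30.9% of all promoters and in 19 of the 31 matched members. A match is a string of letters in this window and does not show that a factor binds there.

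Cells were clustered without the members, named "X-like" from marker genes, and divided into 10434 matrix-making cells (chondrocyte-like, hypertrophic-chondrocyte-like or HTC-like, osteoblast-like, fibroblast-like and tendon-like) and 22036 vascular, immune and other cells, called the rest. A further 9182 cells (marrow-stromal-like, cycling, unnamed and few-UMI stromal cells among them) were in neither. Of these, 5286 were few-UMI stromal cells, with 1782, 198 and 366 in controls 1 to 3 and 1301, 865 and 774 in knockouts 1 to 3. Their largest cluster (3946 cells) had the cartilage genes Col10a1, Hapln1 and Col2a1 among its leading genes, beside Lyz2 and S100a9. Cartilage-marked barcodes were thus left out unevenly between libraries. The makeup of the matrix-making cells differed between libraries, since chondrocyte-like cells were 1.2% of them in knockout 2 and 21.4% to 39.3% in the other 5 libraries, and osteoblast-like cells were 78.1% in knockout 2 and 5.2% to 15.9% elsewhere. The level of a gene is given as counts per 1000000 (CPM), the UMIs of the gene for every 1000000 UMIs of all genes in the summed cells of a class, and ratios are of such levels within 1 library. The 3′ counts carry no length correction and levels are compared between cells only, and because a level is a share of the UMIs of a class, it does not tell more RNA of a gene from less RNA of others. Collagens helped to form and name these classes, so their levels are a description and no check of the labels: the UMIs of 16 cargo collagens made up 90928 to 142590 CPM in the matrix-making cells and 3168 to 12281 CPM in the rest.

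The list split by role. Of the 42 members, 20 were at least 2 times as high in the matrix-making cells as in the rest in all 6 libraries, against 7.24% of all 11359 genes measured, and the median ratio was 2.11 over the members and 0.799 over all genes. All 20 were among the 23 secretory and collagen genes. With endothelial-like and pericyte-like cells alone as the rest, 12 members passed, against 5.85% of all genes: 3 secretory genes, 4 hydroxylases and 5 crosslinking genes, but no collagen chaperone. None of the 19 sensors, transcription factors and chaperones reached 2 times in all 6 libraries in the main comparison, while 8 of them did in at least 1 library. Of the 19, Sdf2l1, a chaperone partner of the ER luminal Hsp40 proteins, was at least 2 times lower in all 6 libraries, as were 13.7% of all genes. The median ratio was 0.908 for sensors and transcription factors and 1.27 for chaperones and targets, and 3.27 for secretory genes, 3.88 for collagen chaperones, 4.31 for hydroxylases and 10.3 for crosslinking and cleavage genes. These comparisons describe classes made from the same cells and have no test.

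**Figure D1:**
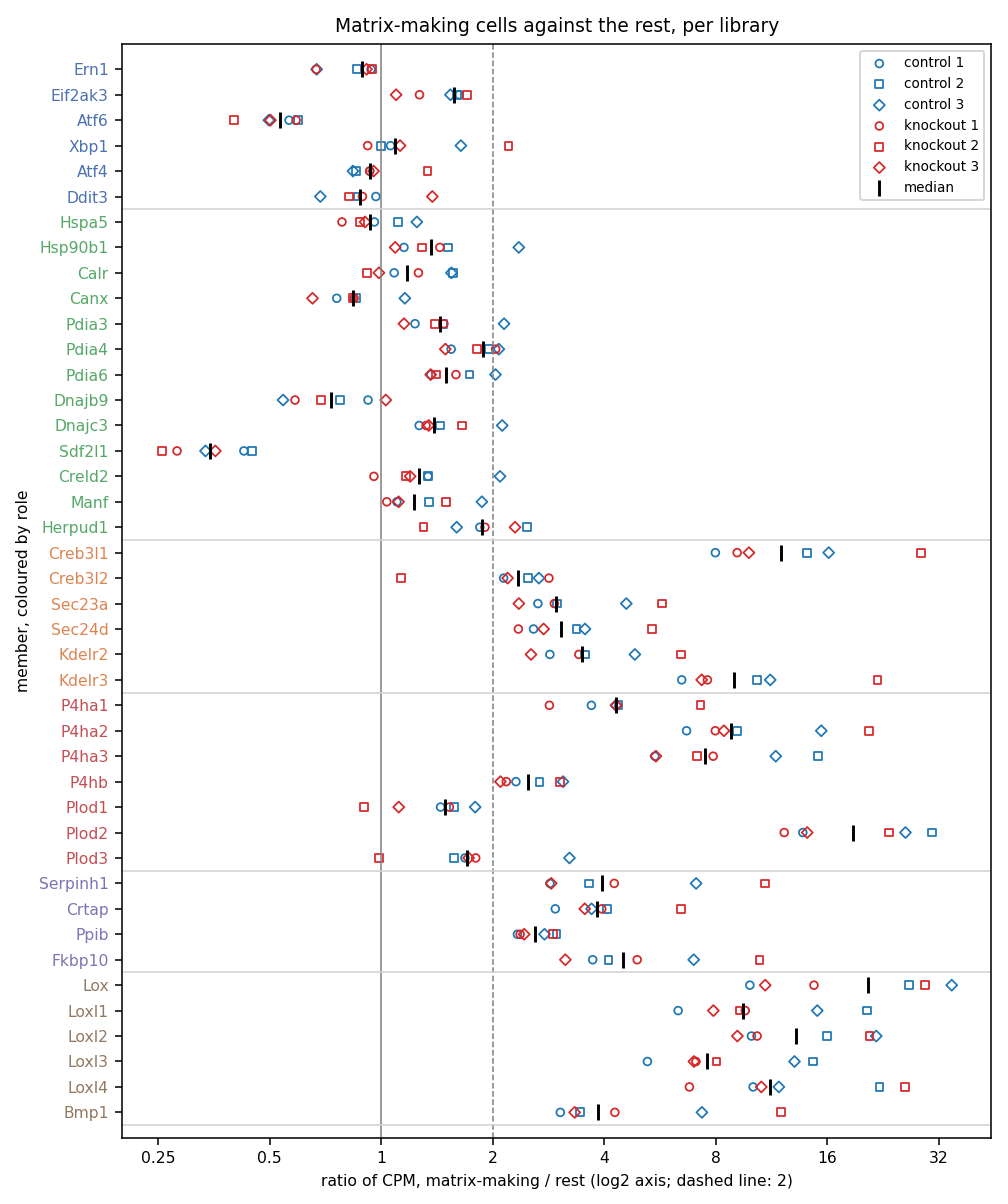
Ratio of CPM in matrix-making cells to those in the rest (log axis), 1 row for each of the 42 members by role and 1 point for each of the 6 libraries, blue for control and red for knockout, with the median as a bar and a dashed line at 2. The sensors, factors and chaperones lie around 1 and the secretory and collagen genes mostly above 2.

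Among the sensors and transcription factors, Atf4, which encodes the factor that PERK signalling induces by translation, had the highest levels. It was at 215, 238 and 200 CPM in the matrix-making cells of controls 1 to 3 and at 222, 224 and 261 in those of knockouts 1 to 3, and the rest were at 231, 279, 239, 238, 168 and 274 in the same order. The matrix-making cells were thus lower than the rest in 5 libraries and higher in knockout 2. The largest ratio of this role was that of Eif2ak3, the PERK gene, with 26.0, 29.8, 27.3, 25.005, 17.8 and 14.1 CPM in the matrix-making cells and 15.97, 18.5, 17.7, 19.7, 10.5 and 12.8 in the rest. Its matrix-making cells were above the rest in all 6 libraries, by 1.10 to 1.70 times. Atf6 was at 0.399 to 0.596 of the level in the rest, below 1 in all 6 libraries. Among the classes compared, which are listed below, osteoclast-like cells held its highest median level (87.2 CPM). Ern1 also lay below 1 in all libraries (0.667 to 0.943), whereas Xbp1, whose mRNA IRE1 splices, ranged from 0.919 to 2.21 and Ddit3, which encodes the stress factor CHOP, from 0.685 to 1.37.

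Among the chaperones and targets, Hsp90b1, which encodes the ER luminal HSP90 paralogue GRP94, had the highest mean level in the matrix-making cells. It was at 927, 940, 1336, 932, 826 and 845 CPM there and at 805, 621, 568, 648, 641 and 775 in the rest, so that the matrix-making cells were higher in every library, by 1.09 to 2.35 times. Pdia4, a protein disulfide isomerase, had the largest median ratio, at 1.88. Its levels were 154, 138, 140, 166, 96.5 and 111 in the matrix-making cells and 99.5, 70.5, 67.6, 81.7, 53.2 and 74.5 in the rest. In both genes every matrix-making value was above that of the rest of the same library. The disulfide isomerases Pdia3 (1.15 to 2.15) and Pdia6 (1.36 to 2.03), the J-domain cochaperone Dnajc3 (1.27 to 2.12), the secreted ER factor Manf (1.04 to 1.87) and Herpud1 (1.30 to 2.48), which takes part in ER-associated degradation, were also above 1 in all 6 libraries. Hspa5, which encodes BiP, the chaperone that holds the sensors inactive, was on both sides of 1, from 0.783 to 1.25. The lectin chaperones Canx (0.652 to 1.16) and Calr (0.914 to 1.56) and the stress targets Dnajb9 (0.543 to 1.03) and Creld2 (0.955 to 2.09) were likewise on both sides of 1.

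All 6 secretory genes were higher in the matrix-making cells in every library, and 5 of them by at least 2 times. Creb3l1 (OASIS) was at 162, 110, 209, 198, 611 and 162 CPM in the matrix-making cells and at 20.3, 7.76, 12.95, 21.6, 21.3 and 16.4 in the rest. Its ratios ran from 7.99 to 28.7, with the highest level and the highest ratio in knockout 2, the library rich in osteoblast-like cells. Kdelr2, a receptor that returns escaped ER proteins from the Golgi, was at 394, 426, 684, 398, 762 and 349 against 138, 120, 141, 116, 118 and 138. The groups of values did not overlap, at ratios of 2.54 to 6.46. Its paralogue Kdelr3 had ratios of 6.48 to 21.9, and the COPII coat genes Sec23a and Sec24d had 2.35 to 5.74 and 2.35 to 5.38. Creb3l2 (BBF2H7) stayed under 2 in knockout 2 alone (1.13), with 2.14 to 2.84 in the other 5 libraries, and it was also at 110 to 173 CPM in endothelial-like cells.

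Of the collagen hydroxylases, Plod2, the lysyl hydroxylase of the collagen telopeptides, had both the highest level and the largest ratio. It was at 969, 1112, 673, 962, 260 and 669 CPM in the matrix-making cells, with the lowest value in knockout 2, and at 70.5, 36.2, 25.8, 78.5, 11.0 and 47.3 in the rest. Its ratios were 12.3 to 30.7. The subunits of collagen prolyl 4-hydroxylase P4ha1 (2.85 to 7.28), P4ha2 (6.68 to 20.8), P4ha3 (5.48 to 15.1) and P4hb (2.10 to 3.10), of which P4hb also serves as a disulfide isomerase, passed 2 in all libraries. The other lysyl hydroxylases did not: Plod1 had ratios of 0.897 to 1.79 and Plod3 of 0.986 to 3.22, both with the lowest value in knockout 2. Plod1 was the 1 secretory or collagen gene whose highest median level, among the classes compared, lay outside the matrix-making classes, at 223 in endothelial-like cells.

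All 4 collagen chaperones and all 6 crosslinking and cleavage genes passed 2 times in every library. Serpinh1, which encodes the collagen-specific chaperone HSP47, was at 1783, 1943, 2421, 1630, 4190 and 2009 CPM in the matrix-making cells and at 625, 535, 342, 383, 385 and 698 in the rest, with ratios of 2.86 to 10.9. Fkbp10, a prolyl isomerase mutated in brittle bone disease, was at 322, 319, 447, 352, 673 and 331 against 86.3, 77.6, 64.1, 71.6, 64.0 and 105. Both were highest in knockout 2. Crtap and Ppib, which encodes cyclophilin B, had ratios of 2.95 to 6.46 and 2.33 to 2.97. Lox, the founding lysyl oxidase, was at 629, 442, 1409, 1096, 789 and 354 in the matrix-making cells and at 63.6, 16.6, 40.6, 74.3, 26.8 and 32.5 in the rest, at 9.90 to 34.7 times. The other lysyl oxidases had median ratios of 9.46 (Loxl1), 13.2 (Loxl2), 7.56 (Loxl3) and 11.2 (Loxl4), and Bmp1 had 3.86.

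The members that carry an element can be counted in the same comparison. None of the 8 members with an ERSE or ERSE-II, all of them chaperones or targets, was at least 2 times as high in the matrix-making cells in all 6 libraries. Their median ratios were 0.840 to 1.88. Nor was any of 14 other measured genes with one of these elements, where 7.24% of all genes were. All 3 members with the UPRE core were (median ratios of 2.96 to 8.99), as were 13 of 91 other measured genes with it (14.3%). Of other genes with the CHOP-ATF4 composite, 8 of 64 (12.5%) were, although its member Herpud1 was not, and of those with the ACGT core 242 of 3954 (6.12%) were. The median ratios of the other carriers were 0.93 for the ERSE, 0.958 for the ERSE-II and 1.11 for the UPRE core. In these few members the element and the role cannot be told apart.

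RNA released from broken cells is counted in every droplet, and cargo collagens were still at 2850 to 13360 CPM in neutrophil-like cells, which do not make them. The neutrophil-like level of each member, as a percent of its level in the matrix-making cells (median over libraries), was 4.18 to 23.4 for the 23 secretory and collagen genes, with a median of 7.58. For the 19 sensors, factors and chaperones it was 8.41 to 245, with a median of 32.3. The part of free RNA in the low levels of these genes outside the matrix-making cells was not tested. Among the classes compared, 22 of these 23 genes had their highest median level in a matrix-making class, against 8 of the 19. The other classes compared were endothelial-like, pericyte-like, macrophage-like, osteoclast-like, neutrophil-like, granulocyte-monocyte-progenitor-like, B cell-like and T and NK cell-like cells. Marrow-stromal-like, cycling, monocyte-like and dendritic-cell-like cells were left out. Eif2ak3, Pdia4 and Creld2 were highest in B cell-like cells, whose sums held as few as 26318 UMIs.

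Among other genes of the pathways, listed by function, only those of collagen processing mostly reached 2 times. At least 2 times higher in the matrix-making cells in all 6 libraries were 2 of 25 further genes of the unfolded protein response and ER-associated degradation (Selenos and Atf5), 1 of 12 of the translocon and signal sequence processing (Ssr2) and 1 of 16 of COPII and ER export (Sec31a), against 7.24% of all genes, so that the further secretory genes did not share the high ratios of the 6 secretory members. Of collagen processing, 11 of 16 were. The last group had a median ratio of 6.21. It included the prolyl 3-hydroxylase P3h1 (ratios of 5.65 to 11.9), which works in a complex with CRTAP, and the procollagen peptidase enhancers Pcolce (5.35 to 19.3) and Pcolce2 (11.6 to 50.8). The other 3 lists had medians of 1.14, 1.78 and 1.5, which were above the median of 0.799 over all genes.

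**Figure D2:**
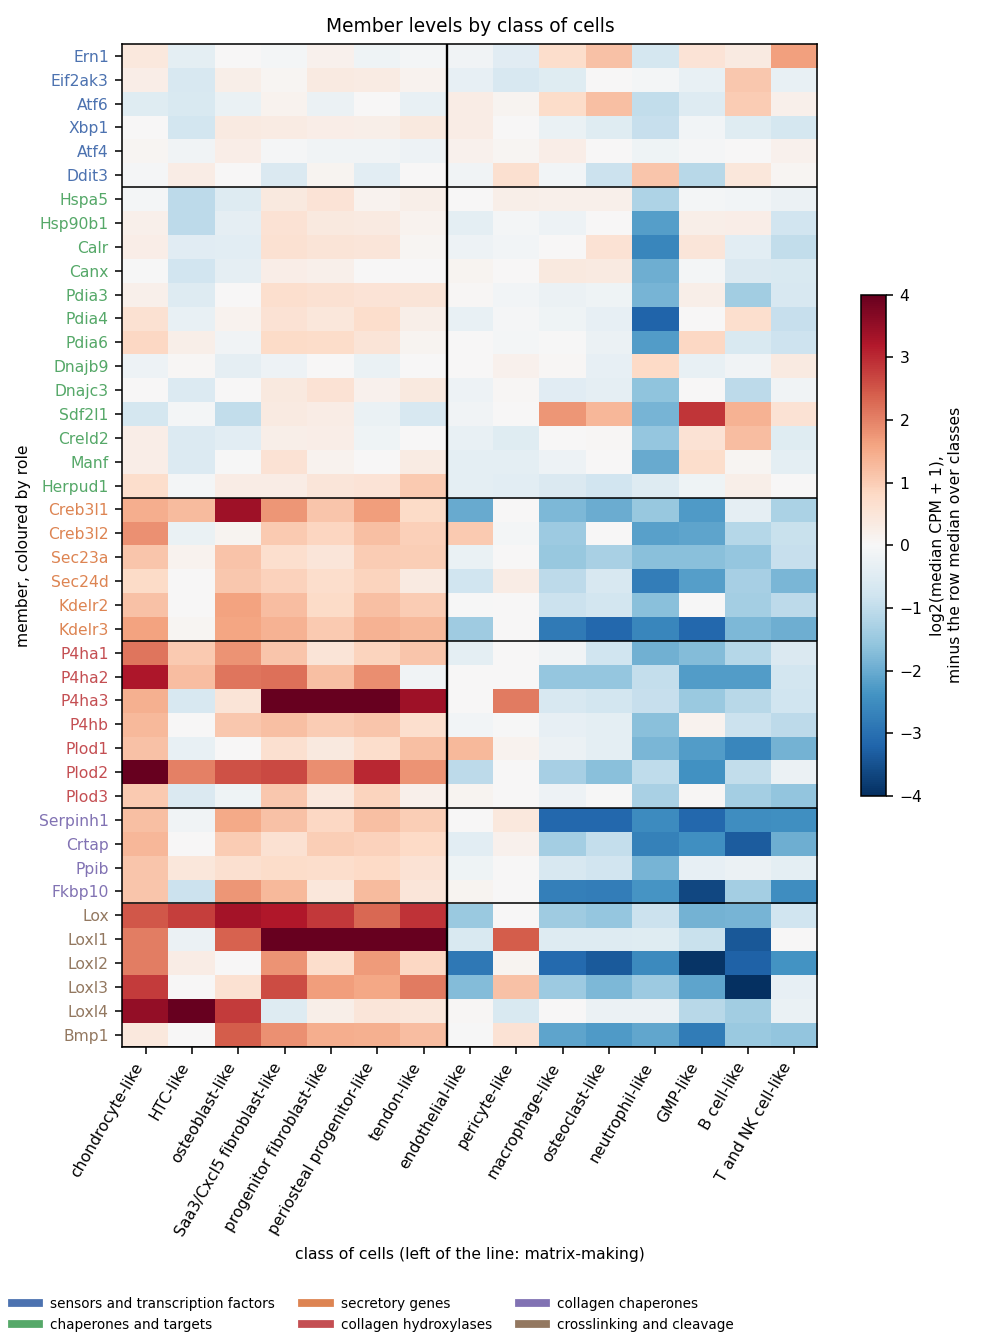
Heat map of the 42 members (rows, by role) in each class of cells (columns), where the colour is log2 of the median CPM + 1 less the row median and ends at 4 in either direction. Most of the secretory and collagen genes are highest in the matrix-making columns, and Sdf2l1 is highest in GMP-like cells.

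Within the matrix-making cells the members were not all highest in the same class. Among the classes, the highest median level was in chondrocyte-like cells for 16 members, in fibroblast-like cells for 10, in osteoblast-like cells for 9, in tendon-like cells for 4 and in HTC-like cells for 3.

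Of the matrix-making classes, osteoblast-like cells held the most Creb3l1, Kdelr2, Fkbp10, Bmp1 and Atf4 in 6 of 6 libraries and the most Serpinh1 in 5 of 6. With the vascular and immune classes counted too, they held the most Atf4 in 2 libraries only. Creb3l1 was at 572, 390, 483, 592, 690 and 446 CPM in the osteoblast-like cells of controls 1 to 3 and knockouts 1 to 3, and at 126, 89.3, 157, 144, 396 and 122 in the chondrocyte-like cells. The 2 classes did not overlap except that the chondrocyte-like value of knockout 2, which came from 21 cells, exceeded the lowest osteoblast-like value. Bmp1 was at 567, 394, 580, 649, 815 and 572 against 138, 102, 179, 147, 220 and 144. Creb3l1 and Bmp1 were the 2 members at least 1.5 times higher in osteoblast-like than in chondrocyte-like cells in all 6 libraries, as were 3.51% of 10052 genes, and Pdia6 and Loxl2 were the 2 that were at least 1.5 times lower, as were 5.97%.

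Chondrocyte-like cells held the most Plod2 in 6 of 6 libraries, at 1395, 1598, 1571, 1505, 310 and 960 CPM, against 539, 585, 399, 624, 276 and 441 in osteoblast-like cells. They also held the most P4ha1, P4ha2, P4hb, Plod3, Crtap, Ppib, Loxl2, Loxl3 and Creb3l2 in 5 of 6. Creb3l2 was at 251, 252, 230, 260, 64.3 and 173 in chondrocyte-like cells and at 97.6, 77.6, 65.9, 101, 45.2 and 59.3 in osteoblast-like cells, so the pair of related factors had opposite leading classes, Creb3l1 in osteoblast-like and Creb3l2 in chondrocyte-like cells.

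Among the matrix-making classes, fibroblast-like cells held the most Loxl1 in 6 of 6 libraries and the most P4ha3 in 5 of 6. These were the 2 members at least 1.5 times higher there than in chondrocyte-like cells in all 6 libraries. That is a smaller share than over all genes (8.77% of 10502). P4ha3 was at 93.5, 109, 99.7, 130, 82.4 and 80.8 CPM against 11.1, 24.2, 22.7, 15.9, 5.85 and 12.6, and Loxl1, the lysyl oxidase tied to elastic fibres, at 391, 215, 241, 307, 339 and 275 against 53.0, 44.2, 60.1, 41.2, 33.1 and 38.5. Neither pair of ranges overlapped. Plod2 and Loxl4 were lower in the fibroblast-like cells by the same measure, as were 3.25% of genes. The chaperones Hspa5, Calr and Manf had their highest matrix-making level in fibroblast-like cells in 5 of 6 libraries each.

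**Figure D3:**
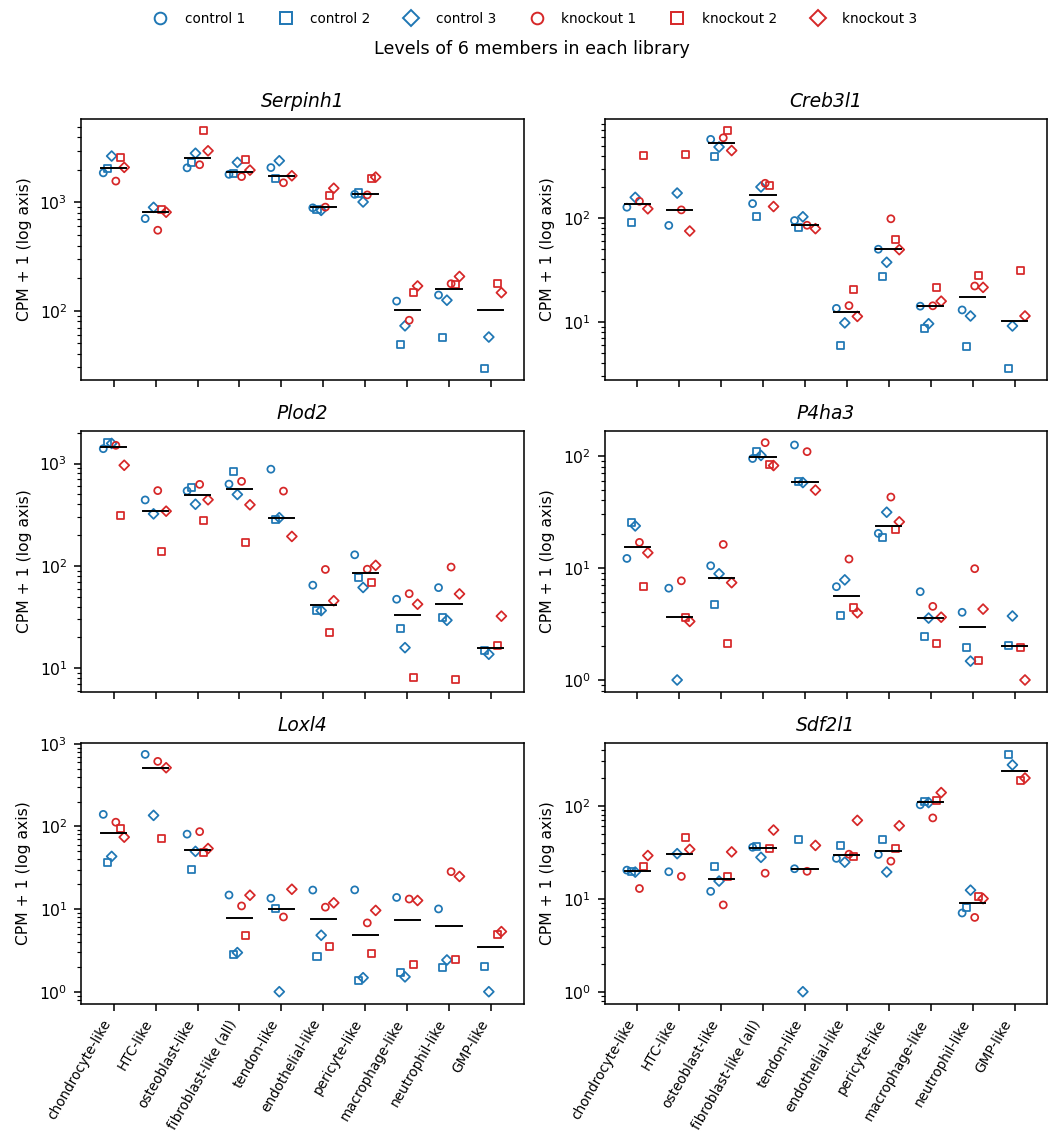
CPM + 1 (log axis) of Serpinh1, Creb3l1, Plod2, P4ha3, Loxl4 and Sdf2l1 in classes of cells, 1 point for each library with at least 10 cells of the class, blue for control and red for knockout, and a line at the median. Creb3l1 stands highest in osteoblast-like, Plod2 in chondrocyte-like, P4ha3 in fibroblast-like and Sdf2l1 in GMP-like cells.

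HTC-like cells had lower levels of most members than chondrocyte-like cells. Over the 5 libraries with at least 10 HTC-like cells (control 2 had 7 and was not used), 27 of 42 members were lower in every library, against 14.9% of 10106 genes, and 11 were at least 1.5 times lower in every library, against 4.44%. The median ratio was 0.549 over the members and 1.05 over all genes. The 11 were Canx, Kdelr2, Kdelr3, P4ha2, P4ha3, Plod2, Plod3, Serpinh1, Fkbp10, Loxl1 and Loxl3. Control 3 and knockout 2 had 15 and 24 HTC-like cells, and without knockout 2 the count was 25 in place of 11, while clusters at a lower resolution (0.4), where a cluster led by Chil1 and Lcn2 joined the HTC-like cells, gave 4.

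Serpinh1 was at 708, 900, 553, 867 and 812 CPM in the HTC-like cells of controls 1 and 3 and knockouts 1 to 3, and at 1876, 2681, 1574, 2621 and 2107 in the chondrocyte-like cells of the same libraries. The ranges did not overlap, and the ratios were 0.331 to 0.385. Fkbp10 was at 86.3, 123, 84.1, 187 and 87.8 against 354, 556, 339, 335 and 350, and Plod2 at 440, 321, 543, 137 and 341 against 1395, 1571, 1505, 310 and 960. Cargo collagens were at 22104 to 103550 CPM in HTC-like cells and at 53109 to 145720 in chondrocyte-like cells. P4ha3 and Loxl3 were each at 0 in 1 of the HTC-like sums. For P4ha3 this was control 3, where a count of 0 allows a level of up to 12.7 CPM. For Loxl3 it was knockout 2, where a count of 0 allows up to 7.88. These limits are for counting error only. The P4ha3 ratio of knockout 2 (0.449) rests on few UMIs too, since its chondrocyte-like level there, 5.85 CPM, is worth 3 UMIs.

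Not all members were lower. Of the 42, 37 had a median ratio below 1 and 5 above it: Loxl4 (5.35), Ddit3 (1.51), Sdf2l1 (1.38), Lox (1.25) and Dnajb9 (1.16), none of them at least 1.5 times higher in all 5 libraries. Loxl4, a lysyl oxidase homologue, was at 744, 135, 612, 71.0 and 513 CPM in the HTC-like cells and at 139, 42.4, 112, 93.6 and 73.3 in the chondrocyte-like cells. It was higher in the HTC-like cells of 4 libraries, at 3.19 to 7.004 times, and lower in knockout 2, at 0.758. Its medians were 51.0 in osteoblast-like cells, 6.83 in fibroblast-like cells and 9.16 in tendon-like cells. Lox, in contrast, had its highest median in osteoblast-like cells, at 876, and was highest there in 4 libraries. In control 3 and knockout 1, fibroblast-like cells held more, at 1642 and 1421 against 889 and 1004. Among the matrix-making classes Lox was lowest in chondrocyte-like cells in 5 libraries.

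**Figure D4:**
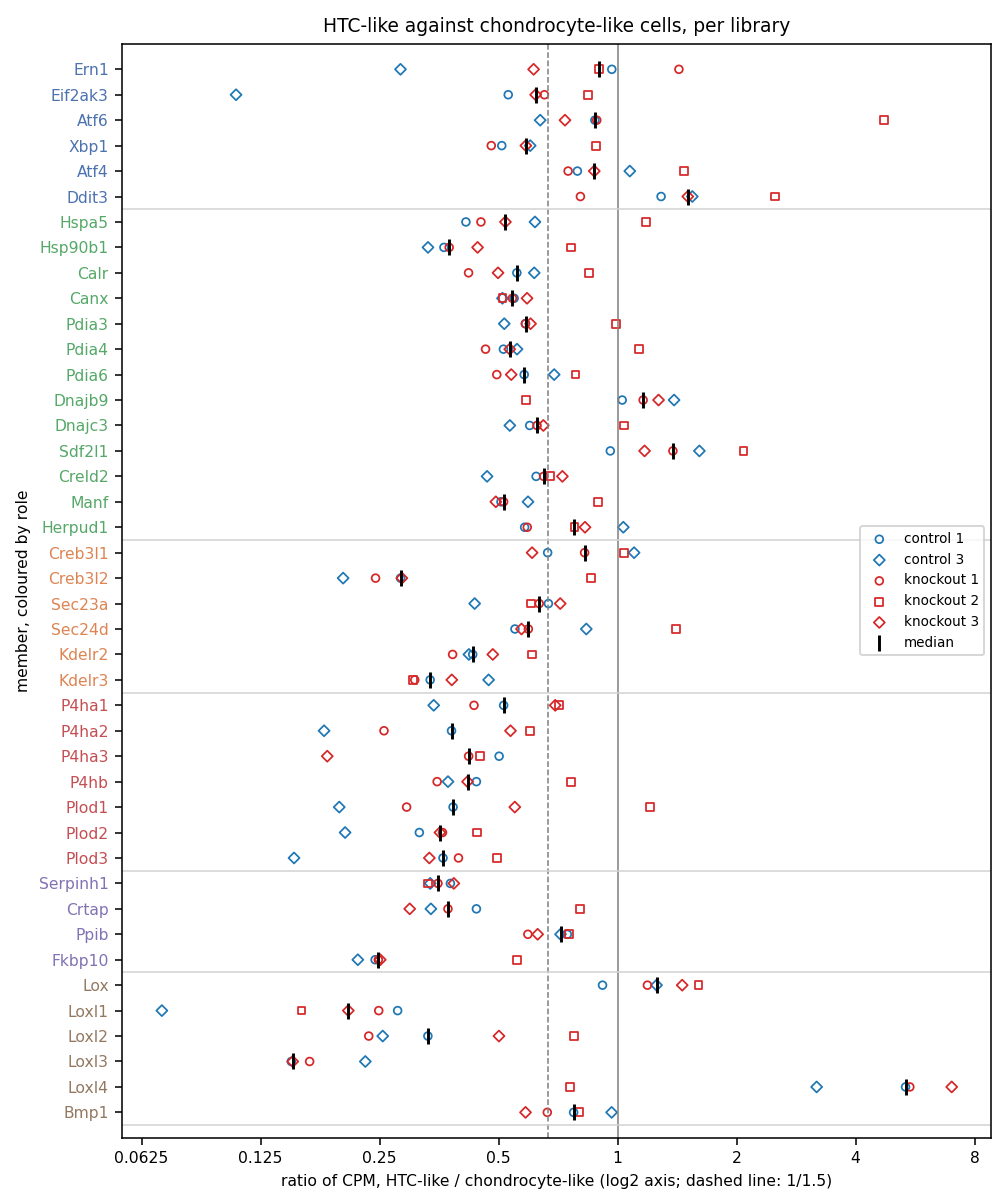
Ratio of CPM in HTC-like cells to those in chondrocyte-like cells (log axis) for the 42 members by role, 1 point for each of 5 libraries, blue for control and red for knockout, with the median as a bar and a dashed line at 1/1.5. Most points lie below 1 and those of Loxl4 lie above it in 4 libraries, and the values of 0 of P4ha3 in control 3 and Loxl3 in knockout 2 cannot be drawn on this axis.

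Outside the matrix-making cells, the vascular cells carried part of the collagen genes. In pericyte-like cells, 17 members were at least 1.5 times as high as in macrophage-like cells in all 6 libraries (18.5% of 11211 genes were), among them all 6 secretory genes and 5 of the 6 crosslinking and cleavage genes. In endothelial-like cells 10 members were, a share near that of all genes (19.3% of 11011), with 3 of the 4 collagen chaperones. Serpinh1 was at 1187, 1222, 1010, 1173, 1670 and 1713 CPM in pericyte-like cells and at 891, 868.1, 844, 904, 1167 and 1352 in endothelial-like cells, against 122, 47.5, 71.6, 80.7, 146 and 168 in macrophage-like cells. Cargo collagens were at 11617 to 27519 CPM in pericyte-like cells and at 1702 to 8611 in endothelial-like cells.

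Granulocyte-monocyte-progenitor-like (GMP-like) cells, the precursors of neutrophils, had higher levels of the general chaperones than neutrophil-like cells did, but not of the crosslinking genes. Over the 4 libraries with at least 10 such cells, 11 of the 13 chaperones and targets were at least 1.5 times as high as in neutrophil-like cells in every library, and 17 of all 42 members were, against 35.6% of 9358 genes, so that over the whole list the share was near that of all genes. The median ratio of the chaperones and targets was 4.22, and that of all genes 1.56. Sdf2l1 was at 357, 275, 188 and 198 CPM in the GMP-like cells of controls 2 and 3 and knockouts 2 and 3, against 7.04, 11.4, 9.64 and 9.04 in the neutrophil-like cells, and its highest level in the fibroblast-like cells of any library was 53.9. Manf was at 630, 476, 377 and 401 against 63.6, 68.7, 67.7 and 69.9. The exceptions were Dnajb9, which was lower in GMP-like cells, and Herpud1. Ddit3 was also lower. Of the classes compared, neutrophil-like cells held the highest median level for both Ddit3 (114) and Dnajb9 (136), and each was highest there in 3 libraries.

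The comparison by genotype asked whether loss of Piezo1 in cells of the Col2a1 lineage is accompanied by changes in these genes. No member passed an adjusted p of 0.05 in any of 6 fits with edgeR's quasi-likelihood test, and 0% of all genes did, in matrix-making cells (17150 genes tested), the chondrocyte stages (14516), osteoblast-like cells (10735), fibroblast-like cells (14788), endothelial-like cells (13871) and in the test of whether matrix-making and endothelial-like cells differed in their genotype effect (17361). All 42 members entered each fit. At an unadjusted p under 0.05 stood 297, 337, 408, 276, 779 and 581 genes in these fits, and 0, 2, 1, 1, 0 and 3 members. DESeq2 called 2, 1, 1, 0 and 4 genes in the first 5 fits, none of them a member. The median SE of a member's log2 difference was 0.35 in matrix-making cells and 0.34 in the chondrocyte stages, so log2 differences of this size lie within the error of 3 libraries against 3. None of the further pathway genes passed either.

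In all matrix-making cells, the smallest unadjusted p was that of Creb3l1, at 162, 110 and 209 CPM in the controls and 198, 611 and 162 in the knockouts (log2 difference 1.24, SE 0.62, adjusted p = 1.00). The groups overlapped, and the 1 high value was that of knockout 2, whose matrix-making cells were mostly osteoblast-like, the class richest in Creb3l1. Within single classes knockout 2 was also the highest library in the chondrocyte stages (402, the others at 88.4 to 158) and in osteoblast-like cells (690, the others at 390 to 592), but not in fibroblast-like cells (203, with knockout 1 at 215). Without knockout 2 the difference was 0.21. The part of cell makeup in it was not tested. Eif2ak3 was lower in the 3 knockout libraries, at 25.005, 17.8 and 14.1 against 26.0, 29.8 and 27.3, with no overlap (−0.42, SE 0.23, adjusted p = 1.00). It was 1 of 2 members without overlap here, against 4.23% of all genes. Loxl1, Loxl2 and Crtap, the other members among the 5 with the smallest p, overlapped between the groups. Loxl1 was at 174, 125 and 195 in the controls and 185, 58.98 and 81.0 in the knockouts, Loxl2, a lysyl oxidase of basement membrane and fibrillar collagen, at 753, 445 and 878 against 783, 125 and 306, and Crtap at 197, 203 and 133 against 208, 229 and 189.

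In the chondrocyte stages, the cells in which the Cre driver is meant to act, 37 of 42 members were below 0 on the log2 scale. Their median was −0.29, whereas 51.5% of all genes tested were below 0, with a median of −0.01. No single member was called. Eif2ak3 was at 24.0, 31.5 and 37.2 in the controls and 24.0, 14.5 and 13.5 in the knockouts (−0.78, SE 0.30, adjusted p = 1.00), and Loxl1 at 47.0, 43.7 and 57.2 against 37.3, 21.3 and 31.4 (−0.64, SE 0.27, adjusted p = 1.00). The values of Loxl1 did not overlap between the groups, and those of Eif2ak3 met at 24.0. Sec24d, which was at 94.4, 119 and 126 against 94.1, 54.8 and 66.8, did not overlap either, while P4ha3 (10.3, 23.8 and 21.5 against 14.7, 4.48 and 10.2) and Creb3l1 (120, 88.4 and 158 against 141, 402 and 111) did. In all, 6 of 42 members did not overlap between the groups, all with the knockouts lower, against 6.55% of all genes tested. The makeup of these sums differed between libraries. Controls 1 to 3 held 477, 484 and 448 chondrocyte-like and 96, 7 and 15 HTC-like cells. Knockouts 1 to 3 held 280, 21 and 1213 chondrocyte-like and 47, 24 and 421 HTC-like cells. HTC-like cells, in which most members were lower, thus outnumbered chondrocyte-like cells in knockout 2 alone. Without knockout 2, 31 of 42 members were below 0, with a median of −0.16, and without knockout 3, 37 were, with a median of −0.45. Without knockout 1, 34 were, with a median of −0.41. In that fit 10 members and 1874 genes stood at an unadjusted p under 0.05 in the edgeR test, and none was called. The part of cell makeup in these differences was not tested.

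In osteoblast-like cells 29 of 42 members were above 0 (median 0.18, against 49.5% of all genes). The median was 0.077 without knockout 2 and 0.11 without integration of the libraries. Of the members, 2 did not overlap between the groups, against 8.40% of all genes. Kdelr3 was at 201, 219 and 220 in the controls and at 231, 359 and 304 in the knockouts, with no overlap (0.58, SE 0.32, adjusted p = 0.935). Atf6 was at 50.1, 49.5 and 29.0 against 32.4, 17.1 and 24.0, with an overlap (−0.78, SE 0.27, adjusted p = 0.935). Eif2ak3 (28.3, 24.3 and 34.5 against 24.8, 18.5 and 14.3), Loxl1 (77.6, 60.8 and 45.9 against 74.5, 11.5 and 27.7) and Bmp1 (567, 394 and 580 against 649, 815 and 572) overlapped as well.

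In fibroblast-like cells 27 of 42 members were below 0 (median −0.087), against 51.4% of all genes. The member with the smallest p was again Eif2ak3, at 28.8, 29.4 and 24.4 in the controls and 25.8, 14.2 and 15.3 in the knockouts (−0.60, SE 0.26, adjusted p = 1.00), with an overlap. Sec24d was at 116, 113 and 111 against 107, 74.1 and 64.1, the 1 member with no overlap (4.52% of all genes had none, −0.51, SE 0.25), and Sec23a at 104, 84.8 and 107 against 101, 67.4 and 51.5, with one. Plod2 (628, 840 and 497 against 668, 168 and 394) and Loxl2 (769, 363 and 974 against 710, 203 and 303) overlapped. Knockout 1 lay close to the controls for Eif2ak3, Sec23a and Sec24d, and knockouts 2 and 3 below them. In control 3, 764 of the 1420 fibroblast-like cells came from a cluster led by Mmp3, Cxcl5 and Saa3, while periosteal-progenitor-like cells, led by Tnn and Aspn, were the largest part in the other libraries.

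In endothelial-like cells, which the Cre driver does not target, 29 of 42 members were above 0, as in osteoblast-like cells. Their median was 0.16, and 50.9% of all genes were above 0. The median was 0.32 without knockout 2 and 0.058 without knockout 3. Without replicate 3 of both groups it was −0.073, with 18 members above 0 and 24 below. Serpinh1 was at 891, 868.1 and 844 CPM in the controls and at 904, 1167 and 1352 in the knockouts, with no overlap (0.46, SE 0.24, adjusted p = 0.773). It was 1 of 2 members without overlap, against 11.5% of all genes. The other was Sec24d, at 35.2, 36.35 and 35.7 in the controls and 32.5, 21.0 and 28.8 in the knockouts (−0.34, SE 0.22). Sec24d was lower without overlap here, as in the chondrocyte stages and fibroblast-like cells. In osteoblast-like cells it overlapped, at 134, 122 and 126 against 135, 101 and 93.0. All these classes come from the same 6 libraries, so they are not independent repeats. Fkbp10 (134, 135 and 177 against 171, 184 and 215), Kdelr3 (26.7, 25.3 and 27.9 against 36.8, 26.1 and 47.4), Creld2 (40.3, 38.1 and 19.5 against 44.4, 32.2 and 71.8) and Creb3l1 (12.5, 4.88 and 8.81 against 13.4, 19.5 and 10.3) overlapped. The levels of Creb3l1 here were near those in neutrophil-like cells (4.80 to 27.2), so released RNA and expression cannot be told apart.

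The test of the difference in genotype effect, which compares matrix-making with endothelial-like cells within each library, gave its smallest p for Loxl1 (log2 difference of differences −1.45, SE 0.45, adjusted p = 1.0) and Loxl3 (−1.18, SE 0.37, adjusted p = 1.0). P4ha3 (−1.004, SE 0.40), Loxl2 (−0.78, SE 0.38) and Plod2 (−0.64, SE 0.33) followed, also with adjusted p = 1.0. In endothelial-like cells these are genes of low level: Loxl1 was at 2.31 to 11.5 CPM there, against 58.98 to 195 in the matrix-making cells. Neutrophil-like cells held Loxl1 at 7.78% of its matrix-making level (median over libraries). The part of released RNA in the endothelial-like values was not tested.

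**Figure D5:**
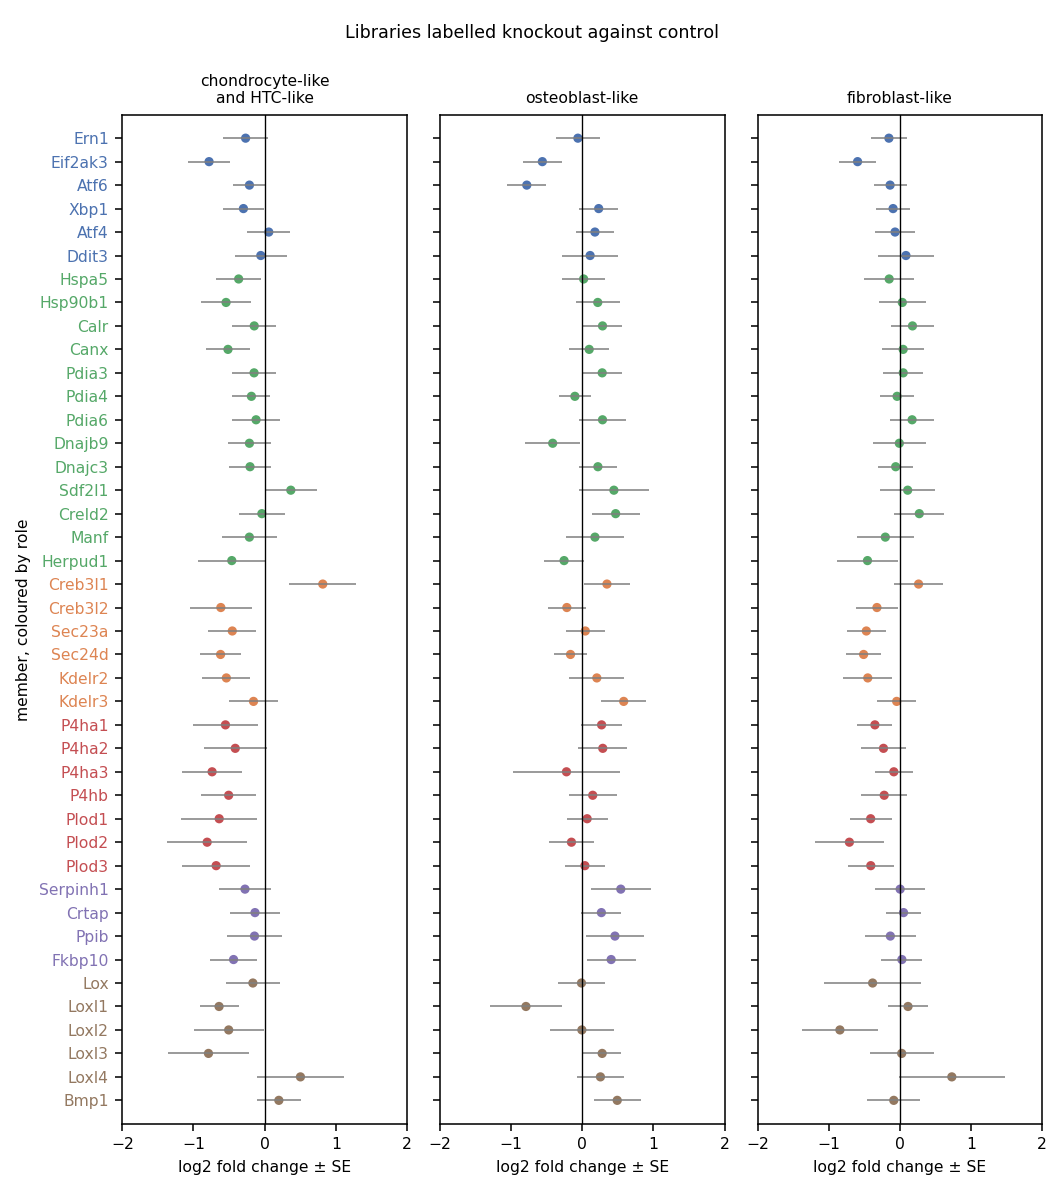
Log2 difference (knockout minus control) of each of the 42 members, with bars of 1 SE from the edgeR fit, in the chondrocyte stages, osteoblast-like cells and fibroblast-like cells, 1 panel each, with rows grouped by role. No member passed an adjusted p of 0.05, and 37 of 42 points of the chondrocyte stages lie below 0.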

How the data were processed

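The deposited files hold raw UMI counts per gene and barcode, which the authors made with Cell Ranger (6.1.1 for replicate 1 of both groups, 6.1.2 for replicates 2 and 3, per the file headers) with no normalization. Gene positions are on GRCm38, and libraries were joined by gene ID. Barcodes under 500 UMIs, under 200 genes or over 20% mitochondrial UMIs were dropped, which kept 44698. Of these, 3046 were dropped for the highest Scrublet scores (a share of 0.8% for every 1000 cells in the library). Under a stricter minimum of 1000 genes and maximum of 10% mitochondrial UMIs, 30545 cells remained, and the number of cells that the study states lies below both.

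From 2000 variable genes without the members, 30 principal components were computed, integrated by RPCA (Seurat 5.3.0, R 4.3.3) and clustered with leidenalg 0.10.2 and scanpy 1.11.5 (20 neighbours, resolution 0.8), first all and then the stromal cells. A cluster was named from at least 3 markers found in 25% or more of its cells at a level 2 or more times that of the median cluster, and these thresholds were set with the data known. Stromal clusters with far fewer UMIs per cell than the median stromal cluster were set apart as few-UMI stromal cells. UMIs were summed per library and class (at least 10 cells) and compared by the two-sided quasi-likelihood test of edgeR 4.0.16 after filterByExpr and TMM scaling (adjusted by Benjamini-Hochberg over all genes tested, threshold 0.05), with DESeq2 1.42.0 as an alternative. The SE of a log2 difference is its size over the square root of F. The tests were run on simulated data with known changes, and most genes with a log2 change of 3 had to be called. This does not show how often smaller changes are found, and the simulation held no difference in cell makeup between libraries. Shares of all genes in class comparisons use genes with a mean of at least 5 CPM over both classes and all libraries, and a denominator below 3 UMIs was set to 3.

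The members, lists and comparisons were chosen with earlier results of these data known. Genes named with values in every library are, in each role, the member with the highest mean level in matrix-making cells and the one with the largest median ratio to the rest, and the 5 members of smallest p in each genotype fit. The other members given with such values (the leading genes of single classes and Sdf2l1, Manf and Loxl4) were chosen after their values were seen. Alternatives changed the libraries, filters, doublets, integration, resolution, classes, weights, tool and replicate block. The study's other experiments were not used here.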

Additional observations from a re-analysis of the deposited data

How the results depend on the processing

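Without a filter on low counts, edgeR called 95 genes in the chondrocyte stages, 43 in osteoblast-like, 31 in fibroblast-like and 112 in endothelial-like cells, and 152 genes in the test of the difference in genotype effect between matrix-making and endothelial-like cells. In that last test 1 of the called genes was a member, Loxl1 (log2 difference −1.47), which was not called with the filter. DESeq2 called 2 genes in matrix-making cells, 1 in the chondrocyte stages, 1 in osteoblast-like cells, 0 in fibroblast-like cells and 4 in endothelial-like cells. With 1 library left out, the 5 class fits called 0 to 0 genes and members. The test of the difference in genotype effect then called 0 to 1 genes, the 1 gene without knockout 3, and 0 to 0 members. Without knockout 1, however, more genes stood at an unadjusted p under 0.05 in edgeR. In matrix-making cells, the chondrocyte stages, osteoblast-like, fibroblast-like and endothelial-like cells they were 2115, 1874, 1376, 1309 and 2225. With all libraries they were 297, 337, 408, 276 and 779. Of the members, 5, 10, 4, 5 and 2 stood there, against 0, 2, 1, 1 and 0 with all libraries. The causes were not tested.

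The labels do not say that replicate numbers pair the libraries, and they were not treated as pairs, although replicates 1 and replicates 3 of both groups share a way of processing. The deviations of same-numbered libraries from their group means had correlations of −0.18 to 0.43, below 0.1 for at least 1 pair in each of the 5 class fits, and those of replicate 1 were positive in all 5 (0.0957 to 0.432). With the replicate number as a block, 0 genes and 0 members were called in those fits.

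The count of 20 members higher in matrix-making cells was 12 with endothelial-like and pericyte-like cells alone as the rest and 19 to 21 under the other alternatives (20 to 21 with 1 library left out). The count of 11 members lower in HTC-like than in chondrocyte-like cells was 4 at a resolution of 0.4 and 11 to 25 with 1 library left out, the 25 without knockout 2. That of 2 members higher in osteoblast-like cells was 2 to 2. The difference of Creld2 in endothelial-like cells was 0.69 and ran from −0.036 to 0.951 with libraries left out, the −0.036 without replicate 3 of both groups and the 0.951 without knockout 2. With 3 libraries a group, these data limit what a genotype comparison can detect.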
